A study of Drosophila melanogaster with 2 samples.

Results

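The homeotic genes of Drosophila melanogaster were examined for occupancy by Psq, the product of pipsqueak, in whole embryos. The 8 genes were taken by name, of 13945 protein-coding genes in all: lab, pb, Dfd, Scr and Antp of the Antennapedia complex, and Ubx, abd-A and Abd-B of the Bithorax complex. Every peak summit from the first to the last of these gene models in each complex, with 10 kb on each side, was read from the authors' peak lists. That gave 222 of the 30000 summits called on both replicates together (the pooled list), and 17 of the 2999 summits of the IDR set. The irreproducible discovery rate (IDR) is a measure of how alike peaks rank in the replicates. Every IDR summit is also a pooled summit, and the IDR set is exactly the 2999 highest-scoring summits of the pooled list, down to a score of 72.49. Membership is thus a cutoff on the pooled score and does not show that a given summit ranks alike in both replicates, so replicate ranks are given beside it.

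The data come from 2 biological replicates of 1 group, numbered 3 and 4 in the labels. Embryos of both sexes, 0 to 24 hours old, came from the transgenic strain psq-GFP, in which Psq carries a GFP tag fused to the C-terminus, and chromatin was pulled down through that tag. Both replicates came from this 1 line, and the promoter that drives the fusion is not given in the labels. Whole embryos mix cells in which a homeotic gene is on with cells in which it is off, and peaks from the 2 kinds of cell cannot be told apart. Because there is 1 group and no comparison of conditions, all values below are descriptions, without tests. Counts of genes and summits are read against the same count over all genes or summits.

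Homeotic genes encode homeodomain transcription factors that set the identity of body segments, and their order along the chromosome follows the order of the body regions they specify. Their on and off states are set early in the embryo and then kept by the Polycomb and trithorax groups of chromatin proteins. In the Bithorax complex these proteins act through elements such as those of bxd, Mcp, Fab-7 and Fab-8, which lie in the long regulatory regions between the genes. Psq is a BTB-domain protein that binds GAGA-type sequence and has been linked to Polycomb-group silencing at such elements. The annotation used here does not mark these elements, so no summit is assigned to one.

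Sequences of 201 bp centred on 7 of the 17 IDR summits are shown because they span the range from many GAGA letters to none. They are the plus strand of chromosome arm 3R in dm6, from the RefSeq assembly, and capitals mark GAGAG or its reverse complement CTCTC. The first 5 are from the Bithorax complex and hold 6, 5, 2, 1 and 1 overlapping copies in that order. The last 2 are from the Antennapedia complex and hold 0. This choice does not reflect the counts by complex. Antennapedia windows not shown, at bcd and near tRNA:Lys-TTT-2-1, hold GAGAG. Bithorax windows not shown, near CG10324 and at 16970077 in Abd-B, do not.
Summit in lncRNA:iab8, score 405, chr3R:16857748-16857948: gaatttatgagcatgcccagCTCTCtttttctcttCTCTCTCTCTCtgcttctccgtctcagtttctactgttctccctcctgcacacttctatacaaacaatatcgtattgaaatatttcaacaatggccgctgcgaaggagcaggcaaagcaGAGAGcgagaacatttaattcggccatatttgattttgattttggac
Summit in lncRNA:bxd, score 95.2, chr3R:16764075-16764275: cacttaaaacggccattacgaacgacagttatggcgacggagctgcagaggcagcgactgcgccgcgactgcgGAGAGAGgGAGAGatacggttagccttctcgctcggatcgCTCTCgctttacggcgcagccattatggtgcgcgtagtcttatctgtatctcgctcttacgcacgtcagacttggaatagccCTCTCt
Summit in lncRNA:iab4, score 95.3, chr3R:16850772-16850972: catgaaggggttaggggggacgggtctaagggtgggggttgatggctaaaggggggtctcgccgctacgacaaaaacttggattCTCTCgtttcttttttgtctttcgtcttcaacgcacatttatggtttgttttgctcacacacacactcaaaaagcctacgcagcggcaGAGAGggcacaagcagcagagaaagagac
Summit between Ubx and abd-A, score 119.8, chr3R:16798809-16799009: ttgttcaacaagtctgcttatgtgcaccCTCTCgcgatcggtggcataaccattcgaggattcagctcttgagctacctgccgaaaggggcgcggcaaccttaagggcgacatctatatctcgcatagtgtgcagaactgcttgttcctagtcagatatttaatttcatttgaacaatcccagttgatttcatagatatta
Summit at an Abd-B promoter, score 97.7, chr3R:16960373-16960573: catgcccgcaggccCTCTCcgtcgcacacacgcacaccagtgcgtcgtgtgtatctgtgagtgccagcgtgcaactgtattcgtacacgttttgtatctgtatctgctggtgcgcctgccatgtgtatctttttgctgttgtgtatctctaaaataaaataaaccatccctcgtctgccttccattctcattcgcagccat
Summit at Ama, score 167, chr3R:6763022-6763222: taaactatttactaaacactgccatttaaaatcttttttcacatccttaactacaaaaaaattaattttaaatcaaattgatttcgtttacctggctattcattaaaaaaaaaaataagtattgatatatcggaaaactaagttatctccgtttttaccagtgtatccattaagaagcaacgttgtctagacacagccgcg
Summit in the Antp intron, score 135, chr3R:6912470-6912670: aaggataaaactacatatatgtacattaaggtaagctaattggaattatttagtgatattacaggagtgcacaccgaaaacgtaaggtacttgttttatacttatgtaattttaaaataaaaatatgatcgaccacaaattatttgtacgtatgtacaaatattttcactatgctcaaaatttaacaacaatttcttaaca

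The strongest Psq summit of either complex lay in the Bithorax complex between abd-A and Abd-B. Near a transcription start site (TSS), 1 of the 8 homeotic genes had an IDR summit, beside 16.2% of all protein-coding genes. The Antennapedia complex (chr3R:6651427-7009228, 357.8 kb) held 8 IDR summits and 116 pooled summits. The Bithorax complex (chr3R:16646623-16982236, 335.6 kb) held 9 and 106. In IDR summits per Mb the complexes were close to the whole arm 3R: 22.4 in the Antennapedia complex and 26.8 in the Bithorax complex, beside 22.2 on the arm. Pooled summits were denser, at 324 and 316 per Mb against 212 on the arm, so a smaller part of them scored high enough for the IDR set. Of the pooled summits, 6.90% were in the IDR set in the Antennapedia complex and 8.49% in the Bithorax complex, where 9.997% of all 30000 were.

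The peak score is the authors' own statistic for each peak, on its own scale in each list, so ranks (1 is the strongest of 30000) are given to compare lists. The median pooled score was 26.2 in the Antennapedia complex and 25.9 in the Bithorax complex, against 27.1 over all pooled summits. A deposited −log10 q of at least 2 was reached by 28 of the 222 summits, 12.6%, beside 18.5% of all pooled summits. The pooled list holds background as well as peaks.

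In the Antennapedia complex no IDR summit lay in or within 10 kb of lab or pb. lab (FBgn0002522, chr3R:6661427-6678590, minus strand), which acts in the embryonic head and midgut, had 11 pooled summits in its body, and the strongest of them scored 53.5 (rank 4824). pb (FBgn0051481, chr3R:6707800-6742063, minus strand), which specifies adult mouthparts, had 9, none above 29.1. Both genes sat inside 331.9 kb without an IDR summit, which runs from position 6427760, outside the complex, to 6759666. That is the 21st longest of 2993 such gaps, of which 0.702% are as long, and the median gap is 13.7 kb.

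The highest-scoring summits of the Antennapedia complex lay between pb and Dfd, at Ama, a gene that is not homeotic, followed by one in Antp and one at bcd. A summit 200 bp upstream of the TSS of bcd, the maternal gene for the anterior morphogen, scored 105.7 (rank 1571). In replicate 3 its peak scored 55.2 (rank 1384) and in replicate 4 it scored 51.3 (rank 1959). At Ama, which encodes an immunoglobulin-domain protein, a summit at 6762913 scored 185 (rank 563) and a neighbour 209 bp away scored 167 (rank 684). Both fell on 1 and the same peak in replicate 3, with a score of 96.5 (rank 448), and in replicate 4, with a score of 105.2 (rank 510). They also lay in lncRNA:CR45593, which overlaps Ama on the other strand, so the peak cannot be given to 1 of these genes. The genes zen, zen2 and ftz, homeobox genes of the complex without a homeotic role, had no pooled summit within 1000 bp of a TSS.

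Dfd (FBgn0000439, chr3R:6791836-6802428, plus strand), which specifies mandibular and maxillary segments, held 1 pooled summit in its body, with a score of 25.1. Scr (FBgn0003339, chr3R:6823120-6849981, minus strand), which acts in the labial and anterior thoracic segments, held 4, none above 27.9. The 20.7 kb between the 2 genes held 17, or 8.22 per 10 kb, the densest stretch of either complex. Only 1 of them was in the IDR set, with a score of 75.2 (rank 2820), 1106 bp upstream of tRNA:Lys-TTT-2-1. Its peak ranked 2548 in replicate 3 and 4524 in replicate 4. Copies of the tRNA:Lys-TTT-2 gene and of the 7SL RNA gene stand in this stretch. No source used here says how reads that map to several places were treated. Most of the 17 summits lie away from these copies, which start at 6819894. They run from 6804024 to 6816936, in and around lncRNA:CR42651. The highest of them scored 51.5 (rank 5091), 353 bp upstream of that gene.

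Antp (FBgn0260642, chr3R:6896253-6999228, minus strand), which specifies thoracic segments, was the homeotic gene of this complex with IDR summits in its body, and it had 3. The strongest scored 135 (rank 1002) and lay in an intron, 20270 bp from the nearest Antp TSS. Its peak scored 67.8 (rank 937) in replicate 3 and 76.3 (rank 950) in replicate 4, so the 2 replicates placed it almost alike. A neighbour 201 bp away scored 75.2 and fell on the same replicate peaks, so these 2 summits are not independent. Another, in an exon of lncRNA:CR43252 inside Antp, scored 95.2 (rank 1897), with rank 1887 in replicate 3 and 2198 in replicate 4. All 3 also lay inside CG46458, which overlaps Antp on the same strand. One more IDR summit, between Scr and Antp in an intron of lncRNA:CR44931, scored 83.4, and ranked 1499 in replicate 3 and 4734 in replicate 4.

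**Figure D1:**
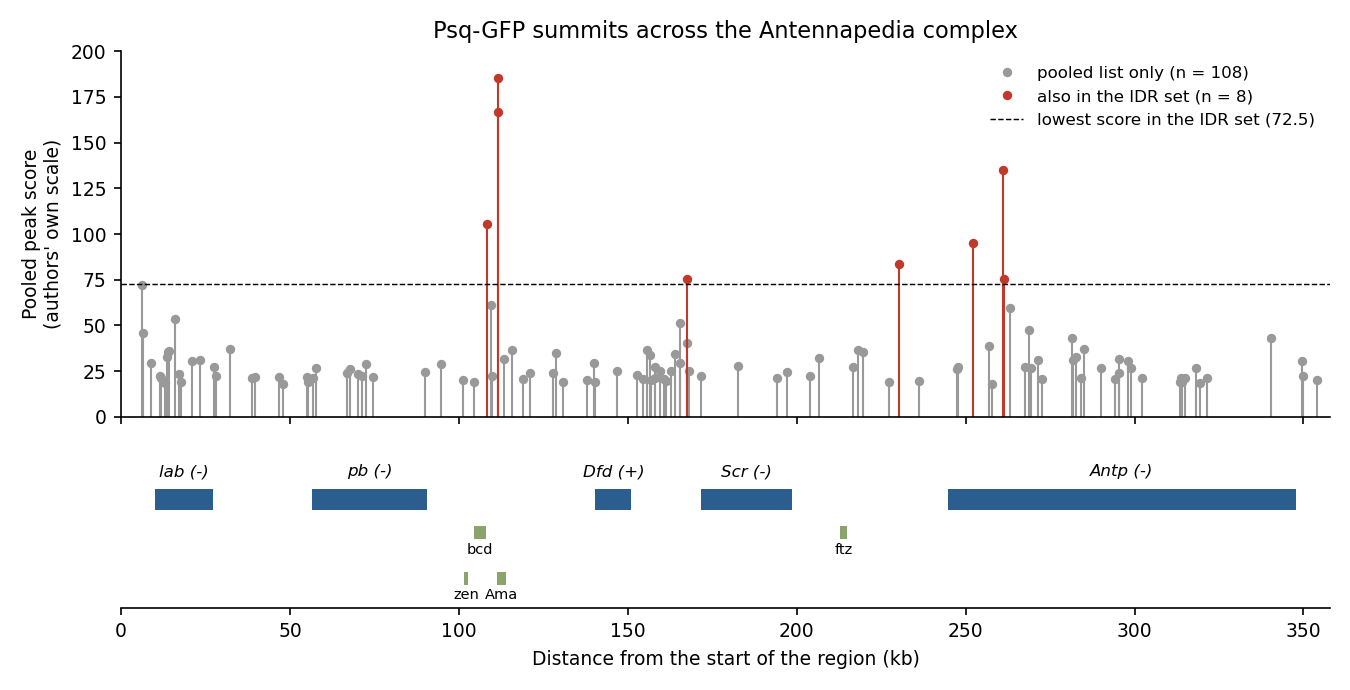
Score of each pooled summit (authors' own scale) against its distance in kb from the start of the Antennapedia complex region, with homeotic gene bodies in blue and 4 other genes in green. Red marks the 8 summits that are also in the IDR set. The highest, 185 and 167, stand at Ama between pb and Dfd, and lab, pb, Dfd and Scr have no red summit in their bodies.

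In the Bithorax complex Ubx (FBgn0003944, chr3R:16656623-16734426, minus strand), which specifies the posterior thorax and the haltere, had no IDR summit in its 77.8 kb body. Its 19 pooled summits there reached a score of 41.0 (rank 7225). The nearest IDR summit to its TSS was 29749 bp upstream, in an intron of lncRNA:bxd, a non-coding transcript of the bxd regulatory region. That summit scored 95.2 (rank 1898), with 48.2 (rank 1786) in replicate 3 and 47.6 (rank 2234) in replicate 4. Its window, the second of the sequences shown, holds GAGAG 5 times and the 7-letter run GAGAGAG 1 time. Ubx lay inside 117.0 kb without an IDR summit, and 9.12% of all gaps are as long.

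abd-A (FBgn0000014, chr3R:16807214-16830049, minus strand), which specifies the anterior abdomen, also had no IDR summit in its body, and its 7 pooled summits reached 46.6 (rank 5939). Between Ubx and abd-A a summit 1691 bp upstream of lncRNA:CR45750 scored 119.8 (rank 1250). Its peak scored 68.6 (rank 916) in replicate 3 and 51.6 (rank 1942) in replicate 4. Upstream of abd-A, 20823 bp from its TSS, a summit in an exon of lncRNA:iab4 scored 95.3 (rank 1895), with 37.7 (rank 2738) in replicate 3 and 57.6 (rank 1598) in replicate 4. This summit also lay inside lncRNA:iab8 and MSAmiP, which overlap lncRNA:iab4 on the other strand. lncRNA:iab4 is the precursor of a miRNA that acts on homeotic transcripts.

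The strongest summit of both complexes stood at 16857848, in the peak chr3R:16857624-16858049, with a score of 405 and rank 111. Replicate 3 gave it 179.9 (rank 126) and replicate 4 gave it 223 (rank 101), so it was among the strongest peaks of each library. The next summit of the Bithorax complex scored 124.9 in the pooled list. The strongest summit lay in an intron shared by lncRNA:iab8 and MSAmiP, which overlap on the same strand, 1506 bp upstream of mir-iab-8 and 27799 bp upstream of abd-A. lncRNA:iab8 runs through the regulatory region between abd-A and Abd-B and gives rise to a miRNA that acts on abd-A and Ubx. The window, the first of the sequences shown, holds GAGAG 6 times, with an unbroken alternating run of 13 letters. Another summit of this interval, in the same introns, scored 91.6 (rank 2026), with rank 1820 in replicate 3 and 2697 in replicate 4.

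Abd-B (FBgn0000015, chr3R:16927212-16972236, minus strand), which specifies the posterior abdomen and genitalia, had 3 IDR summits in its body. It was the homeotic gene with an IDR summit at a promoter: 192 bp upstream of 1 of its 6 TSSs, at 16960281, the summit scored 97.7 (rank 1817). The replicates placed that peak apart, with 31.9 (rank 3644) in replicate 3 and 62.7 (rank 1359) in replicate 4. A summit 1995 bp downstream of the same TSS scored 124.9 (rank 1140), with 70.6 (rank 860) in replicate 3 and 55.4 (rank 1709) in replicate 4. Another, 1503 bp upstream of the TSS at 16968574, scored 96.0 (rank 1866), with 34.6 (rank 3189) in replicate 3 and 60.9 (rank 1438) in replicate 4. The remaining IDR summit of the region, score 80.7, lay outside the homeotic genes at the complex edge, between CG10324 and CCT3, a chaperonin subunit gene.

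**Figure D2:**
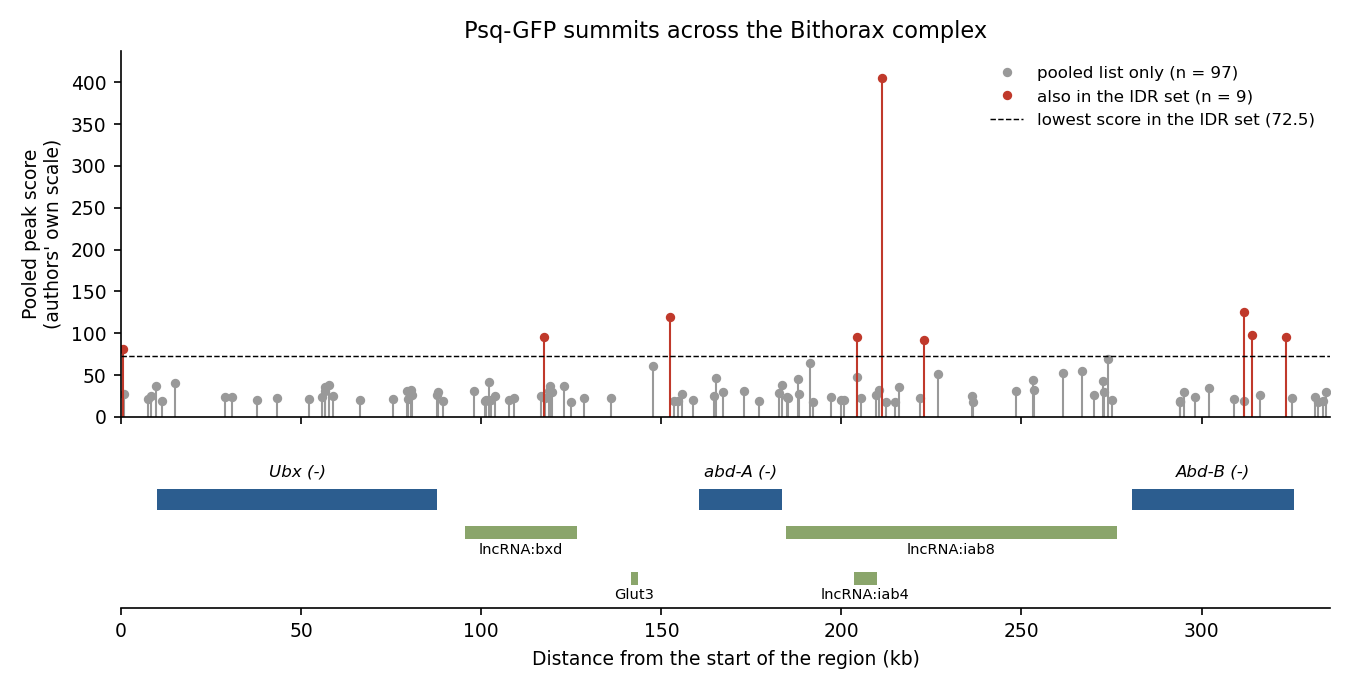
Score of each pooled summit (authors' own scale) against its distance in kb from the start of the Bithorax complex region, with homeotic gene bodies in blue and 4 other genes in green. Red marks the 9 summits that are also in the IDR set. The summit of 405 in lncRNA:iab8 stands far above the next, 124.9 in Abd-B, and Ubx and abd-A have no red summit in their bodies.

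At their own promoters 7 of the homeotic genes had summits ranked below the IDR set. Of the 8 genes, 1 had an IDR summit at a TSS (within 1000 bp), Abd-B, beside 16.2% of the 13945 protein-coding genes, a share near this background. A pooled summit within 1000 bp was found at all 8, beside 59.8%. In single TSSs, 13 of the 19 of the 8 genes had a pooled summit, beside 61.4% of 19252 protein-coding TSSs, and 1 of the 19 an IDR summit, beside 16.2%. The abd-A TSSs at 16829752 and 16830049 share 1 pooled summit, so the 13 are not all separate summits.

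The strongest pooled summit near a TSS ranked 1817 at Abd-B and 6670 at Antp, where the score was 43.2. The replicate ranks that follow are those of the peak overlapping the pooled peak. Antp's ranked 6434 in replicate 3 and 8872 in replicate 4. abd-A followed with a score of 38.3 (rank 8100), with rank 8668 in replicate 4 and no overlapping peak in replicate 3. Ubx scored 30.1 (rank 12458), with rank 12385 in replicate 4 and none in replicate 3. Dfd scored 29.6 (rank 12801), with rank 5843 in replicate 3 and 9477 in replicate 4.

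The 3 other genes of the Antennapedia complex were lowest. lab scored 27.3 (rank 14845), with rank 14132 in replicate 3 and 10588 in replicate 4. Scr scored 24.6 (rank 17855), with rank 19985 in replicate 3 and 9091 in replicate 4. pb scored 24.4 (rank 18189), with rank 17613 in replicate 4 and no overlapping peak in replicate 3. In replicate 3, abd-A and pb each had a separate peak within 1000 bp of a TSS, at ranks 8383 and 13032, and Ubx had none. Below Abd-B the order in the pooled list was not kept in both replicates: Dfd ranked above Antp in replicate 3, and Scr above Dfd in replicate 4. Dfd was therefore not separated from Antp or from Scr beyond the spread of the 2 replicates. Abd-B ranked first in each, among the genes with an overlapping peak, but its own ranks, 3644 and 1359, lay far apart. Abd-B has 6 TSSs, the most of the 8 genes, so its strongest summit was taken from more places. At its other TSSs no pooled summit within 1000 bp scored above 26.42.

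**Figure D3:**
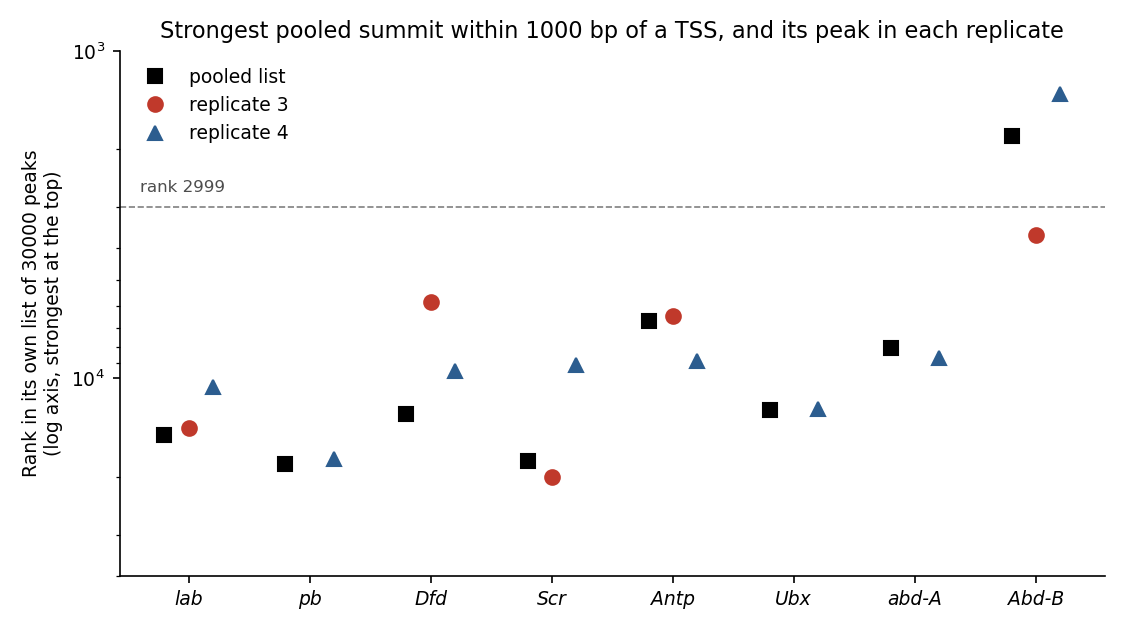
Rank of the strongest pooled summit within 1000 bp of a TSS of each homeotic gene (black), and of the peak overlapping it in replicate 3 (red) and replicate 4 (blue), on a log axis with the strongest at the top. The dashed line is rank 2999, the size of the IDR set. Abd-B passes it in the pooled list and in replicate 4 (rank 1359), not in replicate 3 (rank 3644), and the other 7 genes stay below it wherever they have a peak. No red point is drawn for pb, Ubx and abd-A, which had no overlapping peak in replicate 3.

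The IDR summits were spread over gene bodies and the intervals between them. Of the 17, 1 was within 1000 bp of a homeotic TSS, and such positions make up 35.4 kb of the 693.4 kb read, or 5.11%. In homeotic gene bodies were 6, 3 in Antp and 3 in Abd-B. IDR summits in the body were found in 2 of the 8 genes, beside 32.3% of the 1977 protein-coding genes of at least 10 kb, so this is near the background. A pooled summit in the body was found in all 8, beside 88.3%. By annotation, 5 of the 17 were within 500 bp of a TSS of any gene, 8 were in introns, 2 in exons of non-coding genes and 2 intergenic. Over all 2999 IDR summits 55.8% were within 500 bp of a TSS, 31.8% in introns, 1.2% in other exons and 9.17% intergenic. More than 5000 bp from any TSS were 4 of the 17, beside 10.9% of all. The Ama pair and the Antp intron pair, each on a shared peak in both replicates, are counted here as separate summits. The Ama pair makes up 2 of the 5 near a TSS. The Antp pair makes up 2 of the 3 in Antp and 2 of the 4 far from any TSS.

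Per length, homeotic gene bodies held 6 IDR summits in 337.5 kb, or 1.78 per 100 kb. The intervals between them held 10 in 315.9 kb, or 3.17 per 100 kb. Here too the Antp pair counts as 2 of the 6, and the Ama pair as 2 of the 10. Pooled summits numbered 28.4 per 100 kb in the bodies and 35.1 between them. The interval between abd-A and Abd-B held 3 IDR and 33 pooled summits in 97.2 kb, the interval between Ubx and abd-A held 2 and 26 in 72.8 kb, and the interval between pb and Dfd held 3 and 18 in 49.8 kb. The interval between lab and pb held 0 and 9 in 29.2 kb.

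**Figure D4:**
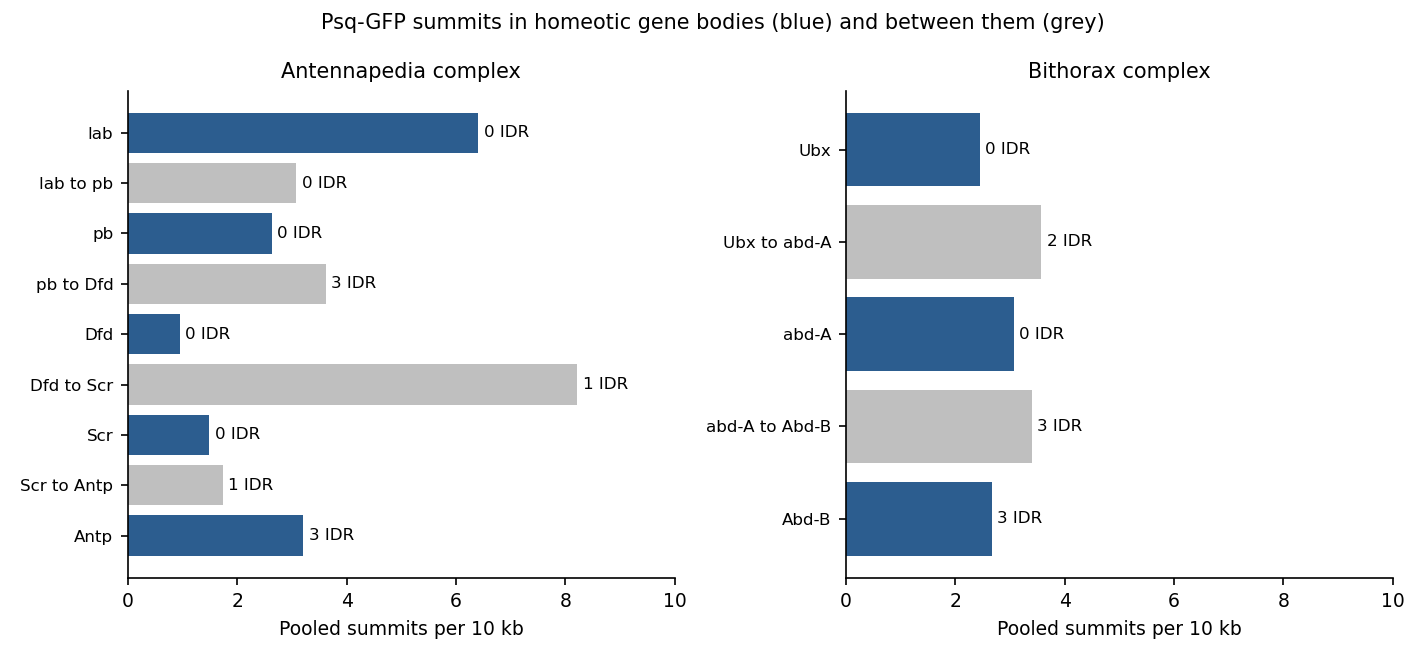
Pooled summits per 10 kb in each homeotic gene body (blue) and each interval between neighbouring homeotic genes (grey), in map order, with the number of IDR summits beside each bar. The interval from Dfd to Scr is highest at 8.22 with 1 IDR summit, lab follows at 6.41 with 0, and Dfd is lowest at 0.944.

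Most IDR summits of the complexes fell on strong peaks of both replicates. They were chosen by a score from the 2 replicates together, so this is in part built in. It also does not mean like ranks: the Abd-B promoter summit ranked 3644 in replicate 3 and 1359 in replicate 4. Of the 17 IDR summits, 14 fell on one of the 2999 strongest peaks of replicate 3, 15 of replicate 4 and 12 of both. The last is 70.6%, near the 75.7% of all IDR summits. The Ama pair and the Antp intron pair, whose summits share replicate peaks, are each counted here as 2 summits. The 3 outside in replicate 3 were all in the Bithorax complex: the summit near CG10324 and 2 of the 3 in Abd-B. The 2 outside in replicate 4 were both in the Antennapedia complex, those near tRNA:Lys-TTT-2-1 and in lncRNA:CR44931. Over all 222 pooled summits, 118 overlapped a peak of both replicates (53.2%, 95% Wilson interval 46.6 to 59.6, counting error only), beside 57.8% of all pooled summits. A further 42 overlapped a peak of replicate 3 alone, 54 of replicate 4 alone and 8 of neither.

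**Figure D5:**
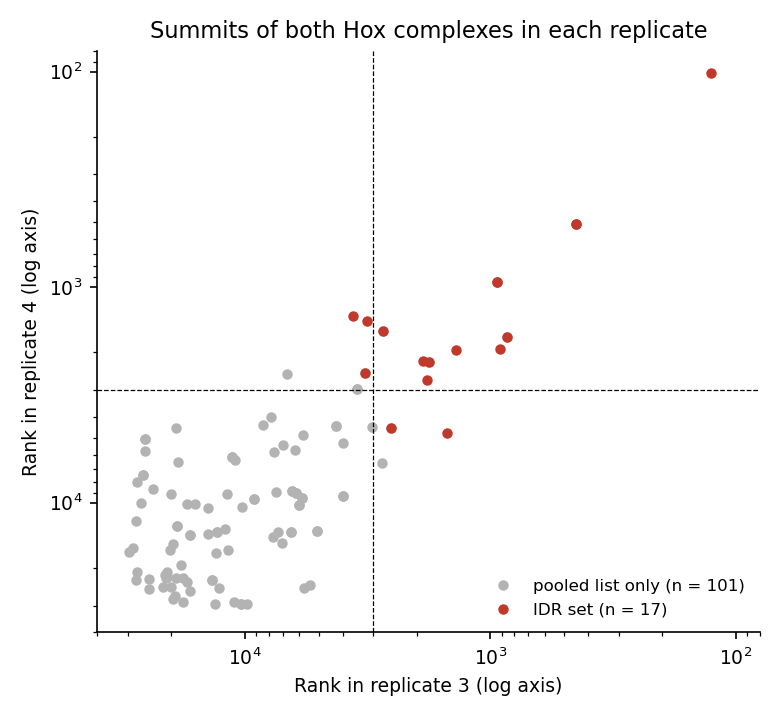
Rank in replicate 3 against rank in replicate 4 (log axes, strongest at top right) for the 118 summits of both complexes whose peak overlaps a peak in each replicate. Dashed lines mark rank 2999. Of the 17 IDR summits (red), 12 lie beyond both lines, and the lncRNA:iab8 summit, at ranks 126 and 101, stands alone in the corner.

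Near the lowest IDR score, 72.5, the complexes had summits on both sides. Just inside were the summit near tRNA:Lys-TTT-2-1 at 75.18, the weaker of the Antp intron pair at 75.22 and the one near CG10324 at 80.7. Just outside were a summit 64 bp upstream of CG1307 in the flank of lab, at 72.3 (rank 3007), and one in lncRNA:iab8 near its start, at 69.2 (rank 3235). Each of the latter 2 was among the 2999 strongest peaks of replicate 4 alone. A summit 7913 bp upstream of abd-A scored 64.8, and one 1550 bp upstream of Ama scored 61.4.

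The letters GAGAG, searched on either strand in 100 bp to each side of a summit, were found at 7 of 9 IDR summits of the Bithorax complex and at 2 of 8 of the Antennapedia complex. Together these are 9 of 17 (52.9%, Wilson 31.0 to 73.8), beside 33.1% of all IDR summits. The Ama pair and the Antp intron pair, each on a shared peak in both replicates, all lack GAGAG and are counted as separate summits. The interval does not allow for this. In windows of the same size centred 1000 bp to the left and right of the 17 summits, 3 and 5 held GAGAG. The difference between the complexes was not tested, and base composition moved with it: the median GC content of the windows was 31.6% in the Antennapedia complex and 44.8% in the Bithorax complex, against 37.8% at all IDR summits. Over the whole regions GAGAG stood at 1.82 copies per kb in the Antennapedia complex and 1.67 in the Bithorax complex, values that do not describe the summit windows.

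The longer run GAGAGAG, which contains GAGAG, was found at 2 of 17 IDR summits, those in lncRNA:bxd and lncRNA:iab8, beside 9.64% of all IDR summits. Most runs of this kind in the complexes carried no summit. Of 179 copies of GAGAGAG, overlapping ones counted separately, 5 had an IDR summit within 100 bp (2.79%), beside 2.06% of 32127 copies in the genome, and all 5 were in the Bithorax complex. A pooled summit within 100 bp was found at 22 of the 179 (12.3%), beside 9.67%. At the homeotic promoters GAGAG was common: 18 of 19 TSSs had it within 300 bp, all but the one at 16972236 of Abd-B, beside 52.4% of protein-coding TSSs. Over the 222 pooled summits GAGAG was found at 62 (27.9%), beside 24.4% of all pooled summits, and GAGAGAG at 8 (3.6%), beside 4.51%.

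GCCAT, the core of the site bound by the Polycomb-group protein Pho, was found on either strand at 8 of the 17 IDR summits, beside 25.4% of all IDR summits. The same letters were as frequent beside the summits, in 8 windows to the left and 11 to the right. Over the pooled summits of the complexes it was found at 103 of 222 (46.4%), beside 31.2% of all, with 35.1% and 44.6% in the windows to the left and right. GAAAA, the core named for the HMG-box protein Dsp1, was found at 13 of 17, beside 75.4% of all IDR summits. It was at 8 of 8 in the Antennapedia complex and 5 of 9 in the Bithorax complex. The 8 count the summits of the Ama and Antp pairs separately. Over pooled summits GAAAA was at 162 of 222, or 73.0%, beside 70.5%. CAGGTAG, bound by the early activator Zelda, was found at 1 of 17, the summit upstream of lncRNA:CR45750, beside 0.834% of all IDR summits, and at 6 of the 222 pooled summits (2.7%), beside 1.11%. A match of letters is a description and marks no bound site.

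Other genes of the complexes and of the homeotic pathway were read in the same way. Of the 28 protein-coding genes of the complexes that are not homeotic, 3 had an IDR summit at a TSS: Ama, bcd and CCT3. That is 10.7%, beside 16.2% of all protein-coding genes. A pooled summit was found at 13 of them, beside 59.8% of all protein-coding genes. Glut3, a sugar transporter gene between Ubx and abd-A, had none. Of 45 non-coding genes of the complexes 2 had an IDR summit there (4.44%), lncRNA:CR45593 and lncRNA:iab4, beside 7.35% of 4219 non-coding genes. A pooled summit was found at 27 of the 45, beside 43.0%. Several of the 45 are nested entries that share a summit. For example, mir-iab-4, mir-iab-8 and shorter entries inside them all count the summit of score 32.55. The 27 are therefore not separate places, and the share is not read as an excess.

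Of 6 genes for Hox cofactors and partners, 1 had an IDR summit at a TSS. It was tsh, a zinc-finger gene of the trunk, with a score of 77.1 (rank 2702). The homeodomain cofactor genes hth and exd had none there, with strongest pooled scores of 50.9 and 37.4, and hth had 1 IDR summit of score 97.5 within its body, as had tio, the paralog of tsh, with 73.3. Of 7 known Hox target genes, 1 had an IDR summit at a TSS: rpr, a cell-death gene, with a score of 106.4 (rank 1550) at 16 bp. The targets ct and dpp had IDR summits within their bodies, with best scores of 105.4 and 83.7. In each of these 2 lists 2 genes had an IDR summit in the body, beside 8.5% of all protein-coding genes and 32.3% of those of at least 10 kb, which hth, ct and dpp are. All 13 cofactor and target genes had a pooled summit within 1000 bp of a TSS, beside 59.8%. These shares of IDR summits, 16.7% and 14.3%, are near the 16.2% of all protein-coding genes.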

How the data were processed

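Psq-GFP ChIP-seq of whole embryos was analysed from the authors' dm6 peak lists. Chromatin was sonicated and pulled down through the GFP tag, per the labels. The deposited text files say that the authors made relaxed lists, of peaks together with background, for either replicate and for the pool of both, each against a control, and took an optimal list from them by IDR. No source used here gives the aligner, peak caller or IDR threshold, and the control experiment was not analysed here. The deposited score of each peak is the authors' own statistic, on its own scale in each list. The deposited −log10 q is capped per list and was used as a threshold only. The files hold no read numbers, so depth is unknown. The lists for dm3 were not used here.

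Summits were the deposited peak start plus the deposited offset, written 1-based. Gene models came from Ensembl release 115, with transposable elements left out, and sequence from the RefSeq dm6 assembly. Pooled peaks were matched to the strongest replicate peak overlapping by at least 1 bp. Python 3.11.15, numpy 2.4.6, pandas 2.3.3, scipy 1.17.1 and statsmodels 0.14.6 were used, and summit placement and motif counting were tested on simulated data. Members and gene lists were chosen with earlier results of these data known. Genes were named by rule: all 8 homeotic genes, the genes of a complex with an IDR summit near a TSS, the gene nearest each IDR summit or each of the 10 strongest pooled summits of a complex, and up to 3 bound genes of each other list. Further genes (zen, zen2, ftz, Glut3, exd, lncRNA:CR42651, mir-iab-4 and the genes with a summit only in the body) were named after their values were seen. Alternatives were the TSS window, the flank, a merge of close summits, the higher-scoring part of each list, the overlap rule, the motif window and 1 replicate at a time.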

Additional observations from a re-analysis of the deposited data

How the results depend on the processing

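Of 50 values recomputed under other settings, 34 stayed close to the reported one and 16 moved. The count of homeotic genes with an IDR summit near a TSS, 1, became 2 when the whole gene body was searched and 0 with the higher-scoring 1499 IDR peaks. With the strongest peaks of 1 replicate alone it ranged from 0 to 1, since Abd-B fell outside in replicate 3. The count of homeotic genes with a pooled summit, 8, ranged from 6 to 8 over its alternatives. That list left 3 IDR summits in the Antennapedia complex and 3 in the Bithorax complex, and the higher-scoring 15000 pooled peaks left 52 and 49 pooled summits. With 1 replicate alone the IDR counts were 6 to 7 and 7 to 10, and the pooled counts 106 to 108 and 98 to 103. Counting summits within 200 bp of the one before only once left the IDR counts at 8 and 9. That setting could not join the Ama pair or the Antp pair, whose summits stand 209 and 201 bp apart. The share of pooled summits overlapping both replicates, 53.2%, was 45% where the overlap had to cover at least 50% of the pooled peak, 33.8% where the replicate summits had to lie within 100 bp, 29.3% with the higher-scoring 15000 peaks of each replicate list and 81.2% among the higher-scoring 15000 pooled peaks. The share with GAGAG, 27.9%, was 17.1% within 50 bp and 51.4% within 250 bp, 21.2% and 18.5% in windows 1000 bp to the left and right, and 3.6% for GAGAGAG. Shorter lists, stricter overlaps, narrower windows and longer motifs lower such counts by construction, and the cause of the shift among the higher-scoring pooled peaks and in the shifted windows was not tested. The GAGAG share was 26.8% to 27.2% with 1 replicate alone. No paired analysis was possible because there is 1 group. Read depth is unknown, so weak and absent binding at lab, pb, Dfd, Scr, Ubx and abd-A cannot be told apart.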
